A study of Mus musculus with 8 samples.

Results

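The genes described here make fatty acids, triglycerides and cholesterol. They are 50 genes chosen by their role, out of 18194 genes that the array annotation names alone, and all probe sets annotated to exactly 1 of them were taken, which gave 121 of the 45101 probe sets on the array. Of these, 97 probe sets of 48 genes were bright enough to be tested. Acacb, the mitochondrial acetyl-CoA carboxylase, with 2 probe sets, and the desaturase-like gene Fads3, with 3, had none. Islet RNA was measured in 4 samples on regular rodent chow (NC1, NC2, NC4 and NC5) and in 4 on high fat diet (HF21 to HF24, 45 kcal% fat). All mice were male C57BL/6J, a strain that carries a deletion in Nnt on both diets. By the sample labels they were weaned at 4 weeks of age and were then on the diet for 12 weeks, while the methods of the study give a somewhat longer time on the diet before islets were isolated. Each sample was the pooled islets of 2 mice, so n counts pools, and islets were released with collagenase, separated on a Ficoll gradient and, by the labels, picked by hand, so that other cells of the pancreas could be carried along. The values are GCRMA intensities, a background-adjusted and normalized brightness on a linear scale. Genes are said to rise or fall where the adjusted p from limma was under 0.05 and the fold change at least 1.5, and log2 fold changes are the mean log2 intensity in HF minus that in NC.

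Lipid synthesis is controlled by the sterol regulatory element binding proteins. Srebf1 encodes SREBP-1, whose best known targets make and desaturate fatty acids, and Srebf2 encodes SREBP-2, whose targets make cholesterol. Both factors are held in the endoplasmic reticulum by Scap and the Insig proteins while sterols are plentiful, and they are released to the nucleus when sterols run low. Polyunsaturated fatty acids are known to lower the activity of SREBP-1, and Scd1 is among the genes they repress. Beta cells make little fat for storage, but they carry this machinery and use it for membranes and granules. The 50 genes were therefore split into the SREBP machinery (5 genes), SREBP-1 type genes (16), other elongation and desaturation genes (5), other triglyceride genes (4), SREBP-2 type genes (18) and cholesterol export genes (2). The names say which factor is usually taken to drive a gene, and several genes answer to both.

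Promoters of these genes were searched for motifs of the SREBPs and of factors known to act with them. SREBPs are weak activators alone and work beside NF-Y, which binds CCAAT, and Sp1, which binds the GC box GGGCGG. RefSeq promoters (GRCm38.p6, 250 bases before to 50 bases after the start site) were at hand for 40 of the 50 genes, and each motif was searched on both strands. CCAAT lay in a promoter of 14 of 14 SREBP-2 type genes and of 7 of 12 SREBP-1 type genes, against 41.1% of all 27025 genes. GGGCGG was held by 13 of the 14 SREBP-2 type genes and by 5 of the 12 SREBP-1 type genes, against 38.2% of all genes. In the other lists CCAAT was in 4 of 5 SREBP machinery, 3 of 5 elongation and desaturation, 1 of 3 triglyceride and 0 of 1 export genes. GGGCGG was in 5 of 5, 5 of 5, 2 of 3 and 1 of 1 of these. Of all 40 genes 29 held CCAAT and 31 held GGGCGG, so neither motif was particular to the SREBP-2 type genes. The sterol regulatory element as written TCACNCCAC was held by 1 gene, Hmgcs1, against 1.44% of all genes. The E-box CACGTG was in 10 of the 40 genes, against 8.09% of all genes. By list it was in 1 of 12 SREBP-1 type and 3 of 14 SREBP-2 type genes. The others were 2 of 5 SREBP machinery, 1 of 5 elongation and desaturation, 2 of 3 triglyceride and 1 of 1 export genes. The direct repeat that LXR can bind was in 0 of the 40, against 0.0148% of all genes. These matches are descriptions and not measured binding, and no promoter was at hand here for Scd1, Scd2 or Fads1.

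The 250 bases before the start site are shown for 3 SREBP-2 type genes that varied most clearly between the NC samples or carry the element, and for 2 SREBP-1 type genes that were lower in every HF sample than in every NC sample at their main probe set. Capitals mark CCAAT on either strand (ATTGG on the reverse) and, in Hmgcs1, the sterol regulatory element. Hmgcs1 is at chr13:119690101-119690350 on the plus strand, Idi1 at chr13:8885356-8885605 on the plus strand, Cyp51 at chr5:4104698-4104947 on the minus strand, Thrsp at chr7:97417551-97417800 on the minus strand and Fads2 at chr19:10101504-10101753 on the minus strand, all in GRCm38.p6.
Hmgcs1: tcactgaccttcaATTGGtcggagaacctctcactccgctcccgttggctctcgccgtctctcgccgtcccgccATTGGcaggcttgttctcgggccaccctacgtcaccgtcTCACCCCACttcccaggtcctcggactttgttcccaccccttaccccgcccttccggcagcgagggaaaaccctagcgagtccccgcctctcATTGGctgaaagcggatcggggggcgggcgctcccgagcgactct
Idi1: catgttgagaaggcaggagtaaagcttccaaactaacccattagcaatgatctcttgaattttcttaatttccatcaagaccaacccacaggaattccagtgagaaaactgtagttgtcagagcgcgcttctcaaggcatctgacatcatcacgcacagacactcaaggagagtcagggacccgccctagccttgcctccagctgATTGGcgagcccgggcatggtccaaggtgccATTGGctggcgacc
Cyp51: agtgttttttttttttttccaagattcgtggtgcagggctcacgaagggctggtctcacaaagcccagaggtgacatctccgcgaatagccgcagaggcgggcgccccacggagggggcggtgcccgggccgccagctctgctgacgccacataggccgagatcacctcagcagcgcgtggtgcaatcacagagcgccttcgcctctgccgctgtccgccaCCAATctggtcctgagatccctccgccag
Thrsp: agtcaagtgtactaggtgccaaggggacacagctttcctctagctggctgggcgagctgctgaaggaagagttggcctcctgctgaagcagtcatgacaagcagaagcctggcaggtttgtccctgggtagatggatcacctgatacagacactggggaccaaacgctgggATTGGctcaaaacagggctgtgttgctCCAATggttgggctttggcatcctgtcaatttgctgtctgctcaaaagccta
Fads2: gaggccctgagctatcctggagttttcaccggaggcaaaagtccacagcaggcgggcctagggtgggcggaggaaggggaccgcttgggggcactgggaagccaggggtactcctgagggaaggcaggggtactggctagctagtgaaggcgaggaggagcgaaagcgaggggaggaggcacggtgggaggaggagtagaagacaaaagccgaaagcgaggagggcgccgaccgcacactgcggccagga
Within the bases shown, the CCAAT nearest the start site began 45 bases before it in Hmgcs1, 14 in Idi1, 29 in Cyp51 and 52 in Thrsp. Fads2 held no CCAAT in this window.

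The islet label was borne out by 10 annotated beta cell markers, all retained. None passed both limits, but 9 of the 10 were higher in HF, with a median log2 fold change of 0.11 and a summed intensity of 258257 to 264265 in NC and 273807 to 288284 in HF, which did not overlap. The 8 acinar markers were retained as well, at a summed intensity of 303590 to 389557 in NC and 332729 to 381710 in HF, so exocrine RNA was present on both diets. The 3' over 5' intensity ratio was 1.10 to 1.20 in NC and 1.08 to 1.19 in HF for Gapdh, and 2.33 to 2.43 in NC and 2.10 to 2.54 in HF for Actb. Over all retained probe sets 0.644% were higher and 3.06% lower in HF by the rule above.

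Between HF and NC islets 1 gene of lipid synthesis passed both limits, Scd1, which fell. Of the 97 probe sets tested 0 were higher and 1 was lower. With 1 probe set per gene (the brightest retained), 0 of 48 genes were higher and 1 was lower, against 0.537% higher and 4.8% lower among all 12299 genes. At an unadjusted limma p under 0.05, 2 of the 48 genes were higher and 7 lower, and over all genes 1069 were higher and 1755 lower. Of the 97 probe sets 6 had their 4 HF values below the 4 NC values and 1 had them above, beside 7.84% and 6.81% of all retained probe sets, so the share of lipid synthesis probe sets was near or under that of all probe sets. The median log2 fold change of the 48 genes was -0.02, beside 0.00 for all genes.

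**Figure D1:**
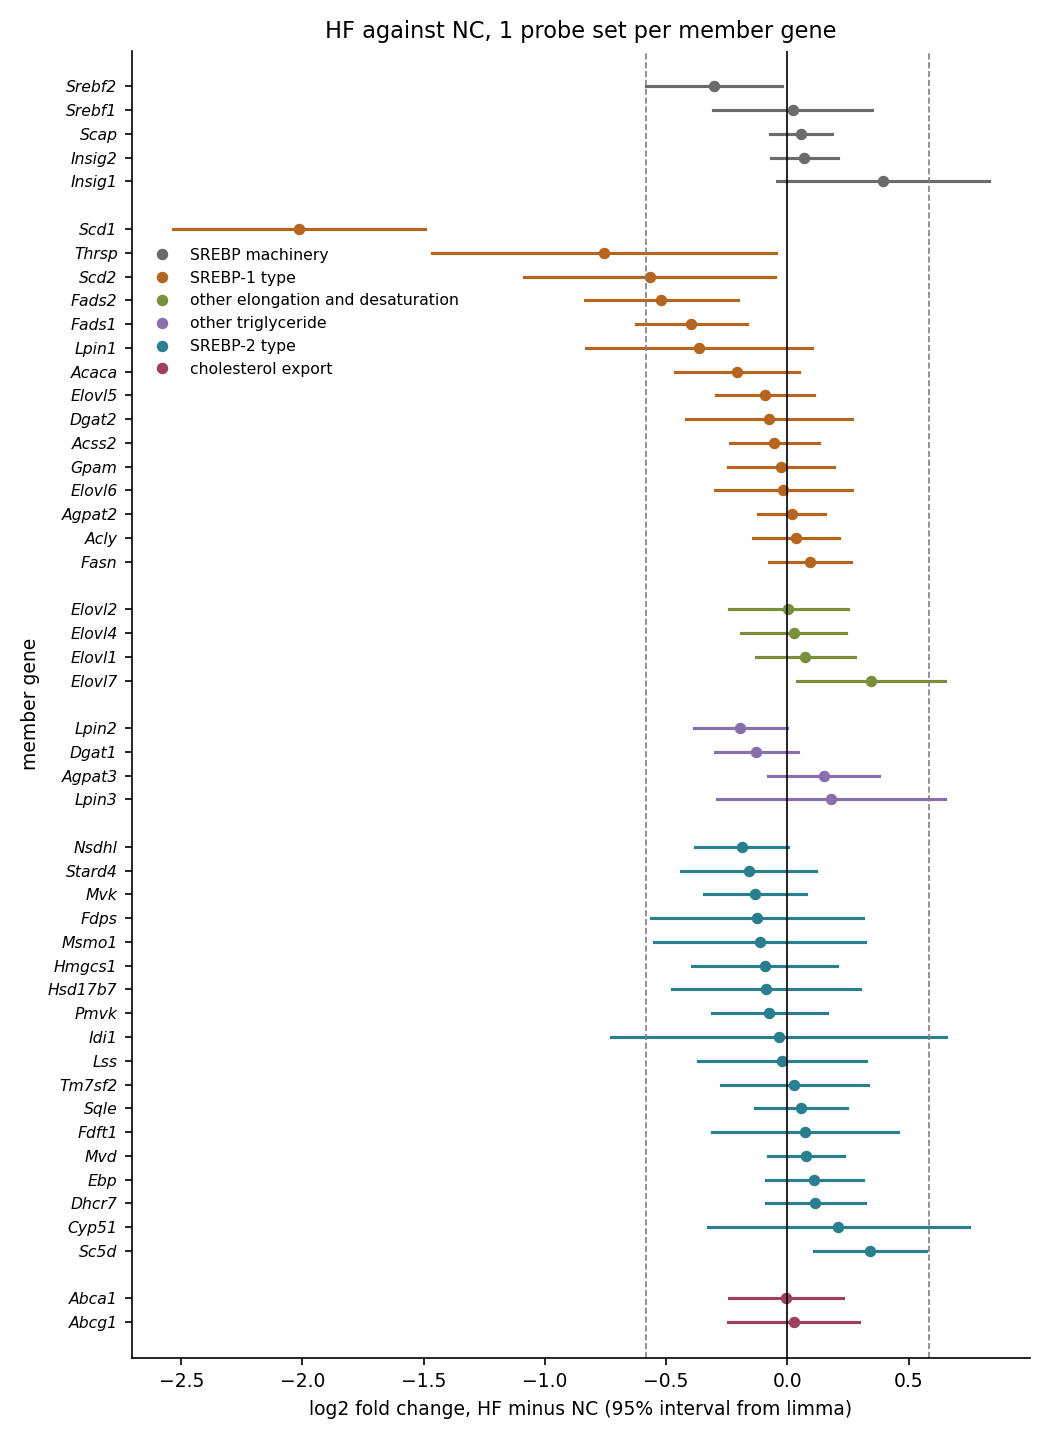
Log2 fold change (HF minus NC, x axis) of each of the 48 genes by 1 probe set, with the 95% interval from limma as a bar, coloured by group; the dashed lines mark a fold change of 1.5 in either direction. Scd1 lies at -2.01, apart from all others, and the SREBP-2 type genes lie between -0.19 and 0.34.

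Scd1 encodes the stearoyl-CoA desaturase that makes oleate from stearate. Its intensity was 345, 253, 344 and 225 in NC1, NC2, NC4 and NC5, and 69.8, 62.1, 106 and 55.3 in HF21 to HF24. The groups did not overlap, and the brightest HF sample, HF23, was at less than the dimmest NC sample, NC5. The NC mean was 292 ± 61.9 and the HF mean 73.3 ± 22.6 (SD, n = 4 each). On the log2 scale HF was lower by 2.01 (log2 fold change -2.01, standard error 0.23, 95% interval -2.53 to -1.49, adjusted p = 0.00287 from limma), or 4.04-fold lower. An exact two-sided permutation test over the 70 arrangements gave p = 0.0286, the smallest it can give with 4 and 4 samples. The other retained Scd1 probe set was close to the lowest intensity tested (8.82) in both groups, with means of 9.47 and 8.44, and did not pass.

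Markers of several other cell types were lower in HF along with Scd1. All 9 fibroblast and stellate cell markers fell, with a summed intensity of 13761 to 19621 in NC and 3055 to 5251 in HF. Of 8 macrophage and leukocyte markers 6 fell, with sums of 2938 to 3413 in NC and 1415 to 1596 in HF. Of 7 endothelial markers 2 fell and all 7 had a log2 fold change below 0, with sums of 14196 to 16255 in NC and 10892 to 12347 in HF. Of 4 Schwann cell markers 2 fell and all 4 were below 0, with sums of 2191 to 2473 in NC and 1767 to 2130 in HF. Of 7 alpha, delta and PP cell markers 1 fell (Irx2), with a median log2 fold change of -0.25 and sums of 266404 to 270312 in NC and 253232 to 259227 in HF, and of 5 duct cell markers 1 fell (Krt19), with sums of 2992 to 3469 in NC and 2854 to 3417 in HF. Adipocytes, which are rich in Scd1, were checked by 9 annotated markers. Adipoq, Lep, Retn, Cidec and Cidea were under the intensity limit, with Adipoq at 3.57 in NC and 3.58 in HF, while Fabp4, also made by macrophages and endothelium, fell by 1.01 on the log2 scale. The other retained markers did not pass, with log2 fold changes of 0.05 for Pparg, 0.07 for Car3 and -0.13 for Aqp7. Car3 and Aqp7 say little, since their NC means of 10.1 and 14.6 lay near the lowest intensity tested. Another Car3 probe set, under the intensity limit, was at 58.1 in NC5 and at 4.90 to 7.30 in the other samples. The summed intensity of the 4 retained markers (5009 to 6814 in NC and 2490 to 3662 in HF) was mostly that of Fabp4. In bulk islets, fewer cells of a type and less RNA per cell cannot be told apart, and the part of these cells in the fall of Scd1 was not tested.

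Scd2, another stearoyl-CoA desaturase of the same gene cluster as Scd1, was more variable. Its intensity was 10075, 5526, 11969 and 8348 in the NC samples and 6605, 6128, 4913 and 5807 in the HF samples. The groups overlapped through NC2, which lay below 3 of the HF samples. The log2 fold change of -0.57 (standard error 0.22, 95% interval -1.08 to -0.05) did not pass the test (adjusted p = 0.200 from limma). Without NC2 it was -0.78 with an adjusted p of 0.0372, so this sample decided the call. The other retained probe sets of Scd2 had log2 fold changes of -0.36 and -0.24.

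Fads1 and Fads2, neighbouring genes for the delta-5 and delta-6 desaturases that make long polyunsaturated fatty acids, were lower in HF by less than the fold limit. Fads1 was at 505, 463, 486 and 466 in NC and at 369.7, 363, 429.9 and 306 in HF, with a log2 fold change of -0.40 (95% interval -0.62 to -0.17). Fads2 was at 136, 101, 123 and 147 in NC and at 89.3, 89.1, 101 and 73.1 in HF, with a log2 fold change of -0.52 (95% interval -0.84 to -0.21). In both genes every HF sample lay below every NC sample, although NC2 and HF23 nearly met in Fads2 (101.5 and 101.2). Adjusted over all probe sets the limma p was 0.0586 for Fads1 and 0.0675 for Fads2, and adjusted over genes, with 1 probe set each, it was 0.0432 and 0.0497. At that threshold with no fold limit 3 of the 48 genes were lower (Scd1, Fads1 and Fads2) and 0 higher, against 6.81% lower and 2.15% higher among all genes. The second retained Fads2 probe set had a log2 fold change of -0.35 with overlapping groups.

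**Figure D2:**
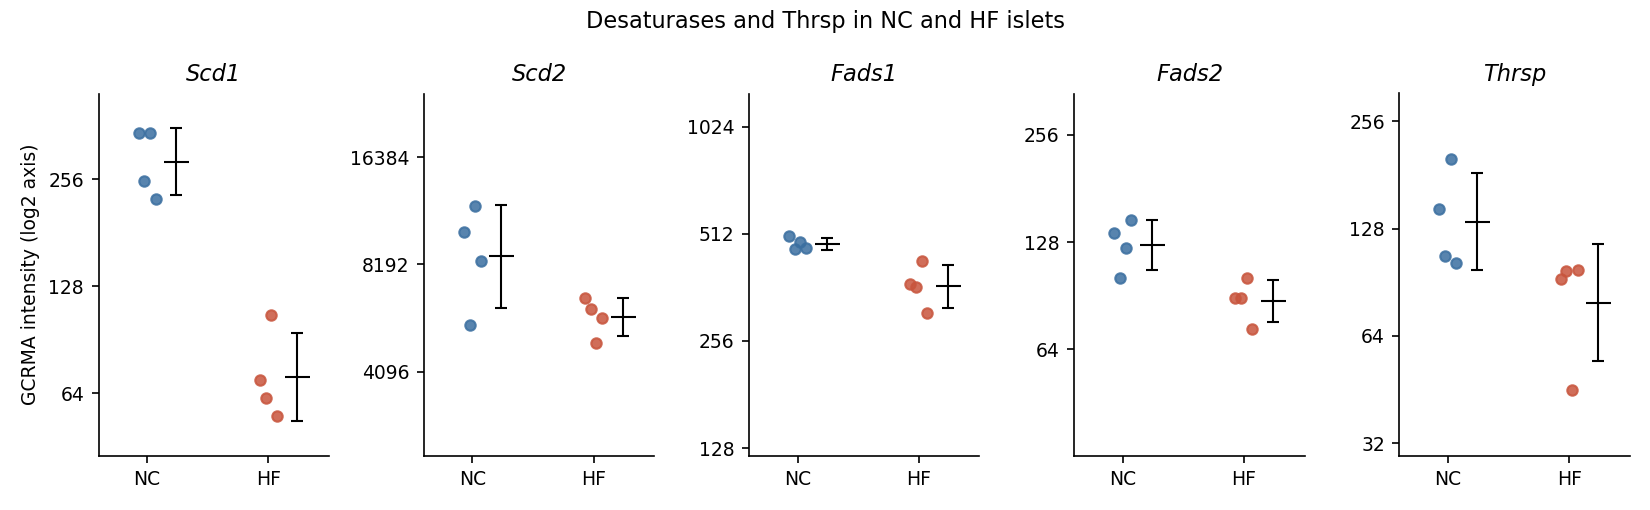
GCRMA intensity (log2 axis, 1 panel per gene with its own range) of Scd1, Scd2, Fads1, Fads2 and Thrsp in the 4 NC and 4 HF samples, with 1 point per sample and the mean ± SD beside it. The 4 HF points lie below the 4 NC points in each panel except that of Scd2, where NC2 (5526) lies among the HF samples.

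No gene of the earlier steps of fatty acid synthesis passed the test. Acly, which splits citrate to give cytosolic acetyl-CoA, was at 33145, 31253, 30934 and 29334 in NC and at 35292, 28362, 31816 and 32549 in HF, with a log2 fold change of 0.04 (95% interval -0.14 to 0.21). Acaca, the cytosolic acetyl-CoA carboxylase that commits acetyl-CoA to fatty acids, was at 256, 229.9, 247 and 243 in NC and at 202, 253, 174 and 223 in HF, with a log2 fold change of -0.21 (95% interval -0.46 to 0.05, adjusted p = 0.344 from limma). Fasn, the synthase that builds palmitate, was at 1224, 1168, 1187 and 1205 in NC and at 1197, 1455, 1280.3 and 1185 in HF, with a log2 fold change of 0.09 (95% interval -0.08 to 0.26). In all 3 genes the groups overlapped, and the intervals stayed within a change of 1.5-fold in either direction.

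Elovl6, which extends palmitate to stearate and so supplies Scd1, was at 535, 678, 769 and 565 in NC and at 562, 661, 605 and 668 in HF, with a log2 fold change of -0.02 (95% interval -0.30 to 0.27). Acss2 and Elovl5, which activate acetate and extend polyunsaturated fatty acids, had log2 fold changes of -0.05 and -0.09. Thrsp, a small regulator of lipogenesis, had a difference whose size depended in part on 1 sample, HF23. It was at 145, 107, 201 and 103 in NC and at 92.2, 97.3, 45.0 and 97.8 in HF. No HF sample reached an NC sample, but 3 HF samples lay just under NC2 and NC5, and the log2 fold change of -0.76 (95% interval -1.47 to -0.05) did not pass the test (adjusted p = 0.211 from limma). Without HF23 it was -0.48, and the second retained Thrsp probe set was at -0.21 with overlapping groups.

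No measured gene of triglyceride synthesis passed the test. Gpam, the mitochondrial acyltransferase of the first step, was at 487, 644, 544 and 594 in NC and at 536, 614, 535 and 538 in HF, with a log2 fold change of -0.03. A much dimmer Gpam probe set was higher in HF, with means of 20.4 and 29.5 and a log2 fold change of 0.54 (95% interval 0.17 to 0.92), but it did not pass (adjusted p = 0.101 from limma) and its groups overlapped. Dgat1 and Dgat2 both catalyse the last step. Dgat1 was at 232, 282, 232 and 249 in NC and at 221, 240.1, 227 and 220.4 in HF, with a log2 fold change of -0.13 (95% interval -0.30 to 0.04). Dgat2 was at 52.0, 48.0, 51.0 and 63.9 in NC and at 53.4, 38.9, 51.5 and 61.7 in HF, with a log2 fold change of -0.08 (95% interval -0.42 to 0.27). The groups overlapped in all 3 genes. Agpat2, an acyltransferase of the second step, was at 0.02. Among the lipins, the phosphatidate phosphatases that yield diacylglycerol, Lpin1 was at -0.36 (95% interval -0.83 to 0.10), Lpin2 at -0.19 and Lpin3 at 0.18, and the acyltransferase Agpat3 was at 0.15, all on the log2 scale and none past the test.

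The other elongases did not pass either. The 4 measured genes of this group (Elovl1, Elovl2, Elovl4 and Elovl7), which extend long and very long chains, had a median log2 fold change of 0.05. At the main probe sets Elovl7 had the largest difference, 0.35 (95% interval 0.04 to 0.65, adjusted p = 0.187 from limma), with intensities of 56.2, 44.3, 54.6 and 44.9 in NC and 57.5, 74.0, 70.4 and 53.1 in HF. Its 6 retained probe sets were all dim and did not agree, with log2 fold changes from -0.01 to 0.57. The probe sets of Elovl4 differed too, with 0.03 at the main one and 0.48 (95% interval 0.08 to 0.89) at a dimmer one. The dimmer one did not pass (adjusted p = 0.161 from limma) and its groups overlapped.

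In cholesterol synthesis no gene passed the test, from the first step to the last. The 18 SREBP-2 type genes had log2 fold changes from -0.19 to 0.34, with 8 above and 10 below 0, and a median of -0.03. None of their 33 retained probe sets passed the test in either direction, and of the 18 genes 1 was higher and 0 were lower at an unadjusted limma p under 0.05. The 95% intervals of 16 of the 18 genes (88.9%) stayed within a change of 1.5-fold in either direction, against 80.7% of all genes, and the exceptions were Idi1 and Cyp51. In Mvd and Hsd17b7 a narrow interval says little, since their means lay near the lowest intensity tested, at 8.87 and 12.3 in NC and 9.34 and 11.4 in HF. By contrast the 15 measured SREBP-1 type genes ranged from -2.01 to 0.09, with 3 above and 12 below 0 and a median of -0.09, and 9 of them had such an interval. The 5 SREBP-1 type genes with an unadjusted limma p under 0.05 were Scd1, Scd2, Fads1, Fads2 and Thrsp, all lower. Among all 12299 genes 1755 were lower and 1069 higher at that limit, and 6204 lay above and 6095 below 0. The difference between the SREBP-1 type and SREBP-2 type genes is a description and was not tested.

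Hmgcs1, the synthase at the entry to the mevalonate pathway, was at 6572, 4728, 7002 and 5297 in NC and at 6029.7, 5315, 5477 and 5063 in HF, with a log2 fold change of -0.09 (95% interval -0.39 to 0.21). Its 4 HF samples lay inside the NC range. Fdft1, the squalene synthase that commits the pathway to sterols, was at 1916, 1453, 2551 and 1571 in NC and at 2033, 1998, 1761 and 1915 in HF, with a log2 fold change of 0.07 (95% interval -0.31 to 0.46). Sqle, the squalene epoxidase, was at 3095, 2619, 3209 and 2660.1 in NC and at 3110.2, 2849, 2902 and 3134 in HF, with a log2 fold change of 0.06 (95% interval -0.13 to 0.24). In these genes too the HF samples lay within the range of the NC samples.

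Cyp51, the lanosterol demethylase, was at 997, 627, 1222 and 644 in NC and at 1179, 989, 784 and 962 in HF, with a log2 fold change of 0.21 (95% interval -0.33 to 0.75). Sc5d, the desaturase of the sterol ring near the end of the pathway, had the largest difference of the group, with 715, 606, 795 and 608 in NC and 903, 889, 787 and 855 in HF. Its log2 fold change was 0.34 (95% interval 0.11 to 0.57, adjusted p = 0.0928 from limma), and NC4 lay above the lowest HF sample. Its other retained probe sets were at 0.06 and 0.08 on the log2 scale. Nsdhl, an enzyme of C4 demethylation, had the largest difference in the other direction, -0.19 (95% interval -0.38 to 0.00). Its HF samples (446, 444, 423 and 407) all lay below its NC samples (466, 456, 576 and 470.1), with an adjusted p of 0.251 from limma. The log2 fold changes of the others, Mvk, Pmvk and Mvd of the mevalonate steps, the farnesyl diphosphate synthase Fdps, the cyclase Lss, the sterol enzymes Tm7sf2, Ebp, Msmo1, Hsd17b7 and Dhcr7 and the sterol carrier Stard4, lay between -0.16 (Stard4) and 0.12 (Dhcr7).

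Most SREBP-2 type genes varied more among the NC samples than among the HF samples, a pattern noticed after the values were seen. Idi1, the isopentenyl diphosphate isomerase, was at 822, 428, 1234 and 583 in NC1, NC2, NC4 and NC5 and at 832, 706, 594 and 657 in HF21 to HF24. Its NC samples spanned a range of 2.88-fold and its HF samples 1.40-fold, around means that hardly differed (log2 fold change -0.04, 95% interval -0.73 to 0.65). The SD of log2 intensity was larger in NC in 15 of the 18 genes (83.3%), against 44.8% of all genes, with a median of 0.22 in NC and 0.10 in HF, while for all genes both medians were 0.12. NC4 was the highest of the 8 samples in 12 of the 18 genes (66.7%), against 9.61% of all genes.

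**Figure D3:**
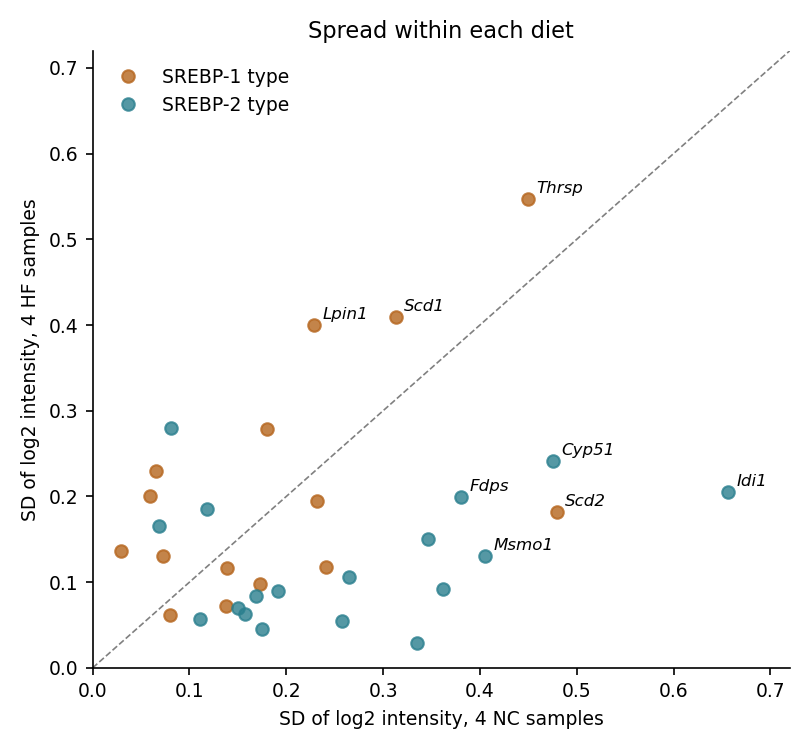
SD of log2 intensity among the 4 HF samples (y axis) against that among the 4 NC samples (x axis), with 1 point per SREBP-1 type or SREBP-2 type gene and the line of equal SD dashed. Of the SREBP-2 type genes 15 of 18 lie on the side of the larger NC spread, with Idi1 farthest, and of the SREBP-1 type genes 7 of 15.

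The samples also kept an order. NC1 and NC4 both lay above NC2 and NC5 in 12 of the 18 SREBP-2 type genes, in 7 of the 15 SREBP-1 type genes (Scd2 and Thrsp among them) and in 27 of the 48 genes (56.2%), against 25.1% of all genes. The mean deviation of the SREBP-2 type genes from their own average was 0.08, -0.23, 0.29 and -0.13 on the log2 scale in NC1, NC2, NC4 and NC5, and 0.09, 0.02, -0.12 and 0.00 in HF21 to HF24. Acinar markers ran the other way among the NC samples, at -0.06, 0.16, -0.19 and 0.25, and their part in the pattern was not tested.

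**Figure D4:**
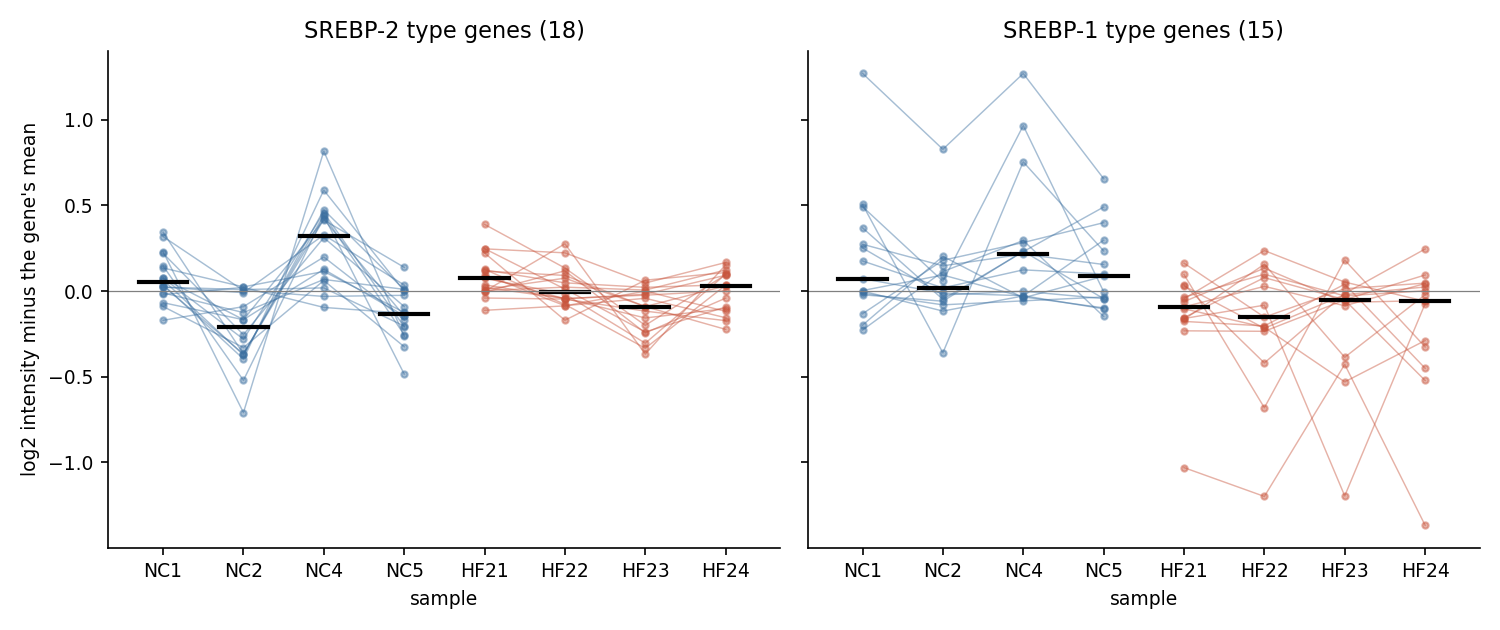
Log2 intensity of each SREBP-2 type gene (left, 18 genes) and SREBP-1 type gene (right, 15 genes) minus its mean over the 8 samples (y axis), by sample (x axis); each thin line is a gene and each black bar the median of the genes in that sample. Most SREBP-2 type genes dip in NC2, peak in NC4 and fall back in NC5, while the HF samples lie close together, and the lowest line on the right is Scd1 in HF21, HF22 and HF24 and Thrsp in HF23.

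No gene of the SREBP machinery passed the test. Srebf1 was at 1607, 1154, 1532 and 1246 in NC and at 1598, 1322, 1154 and 1541 in HF, with a log2 fold change of 0.02 (95% interval -0.31 to 0.35). Srebf2 was at 806, 605, 686 and 606 in NC and at 586, 462, 609.8 and 532 in HF, with a log2 fold change of -0.30 (95% interval -0.58 to -0.02, adjusted p = 0.206 from limma). HF23 was above NC2 and NC5, and the second Srebf2 probe set had a log2 fold change of -0.02.

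Scap, the escort of both factors, was at 1746, 1962, 1769 and 1817 in NC and at 1842, 1928, 1944 and 1866 in HF, with a log2 fold change of 0.06. Insig1, which retains the complex in the endoplasmic reticulum and is itself an SREBP target, was at 1727, 1374, 2493 and 1509.6 in NC and at 2667, 1979, 2054 and 2456 in HF, with a log2 fold change of 0.39 (95% interval -0.04 to 0.83, adjusted p = 0.292 from limma). This was the largest positive difference of the 48 genes. NC4 lay inside the HF range, and NC1 and NC4 were again above NC2 and NC5. Insig2, the second retention protein, was at 1427, 1388, 1511 and 1516 in NC and at 1460.1, 1617, 1465 and 1593 in HF, with a log2 fold change of 0.07 (95% interval -0.07 to 0.21).

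Cholesterol export is driven by LXR when sterols accumulate, and neither of its genes passed the test. Abca1, the transporter that loads cholesterol on apolipoprotein A-I, was at 6566, 6707, 8333 and 6778 in NC and at 6938, 6289.6, 8023 and 6993 in HF, with a log2 fold change of -0.01 (95% interval -0.24 to 0.23). Abcg1, which hands cholesterol to high density lipoprotein, was at 1663, 1544, 1438 and 1508 in NC and at 1675, 1416, 1323 and 1904 in HF, with a log2 fold change of 0.03 (95% interval -0.24 to 0.29). The groups overlapped in both genes. A dimmer Abcg1 probe set was lower in every HF sample, with means of 373 in NC and 261 in HF (adjusted p = 0.245 from limma), so the probe sets of this gene did not give the same picture.

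Other genes of lipid metabolism were looked at too. A further 57 genes of cholesterol handling, SREBP processing, fatty acid and glycerolipid metabolism were listed, of which 46 were annotated alone to a probe set and 40 could be tested. By the rule 1 fell and 0 rose, with a median log2 fold change of 0.01. The gene that fell was Apoe, the apolipoprotein that macrophages, glia and other cells secrete with cholesterol, at 1647, 1536, 1672 and 1571 in NC and at 1053, 1060.1, 959 and 857 in HF, with a log2 fold change of -0.71 (95% interval -0.90 to -0.53, adjusted p = 0.00267 from limma). Its groups did not overlap, and it moved with the macrophage, glial and fibroblast markers given above, whose part in its fall was not tested. Adjusted over genes and with no fold limit, Mylip (-0.52), a ubiquitin ligase of lipoprotein receptors, and Plpp1 (-0.39), a lipid phosphate phosphatase, were lower too, and these 2 are named after their values were seen.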

How the data were processed

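Per the labels, the authors computed one value per probe set with GCRMA in ArrayAssist Lite 3.4, a method that corrects the background and normalizes between arrays, which can compress differences of dim probe sets. The deposited values are intensities, and their span of 1.33 to 142713 shows a linear scale. The deposited intensities were taken to log2 here without further normalization. Precision is limited by the number of arrays.

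Probe sets were named from the platform annotation (34958 with 1 gene, 932 with several, 9211 with none named here). In place of present calls, which were not used here, 56.8% of the 45101 probe sets were kept by their third-highest intensity (at least 8.82), as many as the authors kept. HF was set against NC with limma 3.58.1 in R 4.3.3, by lmFit and eBayes, with Benjamini-Hochberg adjustment over all of them, and again over 12299 genes with 1 probe set each. Intervals come from the fit over probe sets. The script was tested on simulated data. The SAM analysis and the other assays of the study were not used here.

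Members, lists and motifs were chosen with earlier results of these data known. By rule, values in each sample are given for genes past the threshold, the SREBP machinery, a list of key enzymes and the largest difference of each list. Fads1, Fads2, Thrsp, Nsdhl and Idi1, and the promoters shown, were chosen after values were seen. Alternatives were 2 other filters, 3 scalings, other priors, weights and tests, no fold limit, probe set averages, a floor and leaving out each sample. Protein identities were not computed here.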

Additional observations from a re-analysis of the deposited data

Results flagged for a closer look

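Single samples stood apart from the other 3 of their diet in 10 of 96 groups tested by Dixon's test on the gap to the nearest sample, and chance gives about 1 in 20. In NC these were NC4 for Nsdhl (576, others 456 to 470.1), Abca1 (8333, others 6566 to 6778), Acss2 (793, others 648 to 665) and Lpin3 (34.4, others 62.3 to 69.6), NC1 for Elovl5 (10484, others 8539 to 8798) and Mvk (46.7, others 36.7 to 37.6), and NC5 for Mvd (7.89, others 9.14 to 9.23). In HF they were HF22 for Gpam (614, others 535 to 538), HF23 for Thrsp (45.0, others 92.2 to 97.8) and HF24 for Mvd (9.90, others 9.10 to 9.23). NC4 was thus the sample apart in 4 genes, in 3 of them as the highest and in Lpin3 as the lowest.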

How the results depend on the processing

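Scd1 was lower, past the test and the fold limit, under all 18 alternatives, with log2 fold changes from -2.21 to -1.89 and adjusted p from 0.00135 to 0.0221. Of 861 values of single genes under the alternatives, 804 kept their sign and side of the threshold, 54 turned sign, none of them called, and 3 were newly called. The count of higher probe sets, 0, became 1 (Elovl7) after another quantile normalization, and 0 to 1 when each sample was left out (1 without NC4, Elovl7). That of lower probe sets, 1, became 2 with scaling on beta cell markers (Scd1 and Fads2) and 1 to 3 when each sample was left out, with 3 without NC2 (Scd1, Scd2 and Fads2). That of lower genes, 1, became 2 with that scaling (Fads2 added), 3 with no fold limit, and 1 to 3 when each sample was left out, with 3 without NC2 and 2 without HF23 (Fads2 added). By limma, Fads2 was at -0.65 with that scaling (adjusted p = 0.0304) and -0.62 without NC2 (adjusted p = 0.0399), and Scd2 at -0.78 without NC2 (adjusted p = 0.0372). The scaling on beta cell markers moved the median of all genes to -0.13 and that of the SREBP-1 type genes to -0.22. It turned the sign of Srebf1 (-0.11), Insig2 (-0.059), Scap (-0.072), Acly (-0.094), Fasn (-0.036), Agpat2 (-0.11), Elovl1 (-0.055), Elovl2 (-0.12), Elovl4 (-0.10), Mvd (-0.052), Fdft1 (-0.055), Sqle (-0.074), Tm7sf2 (-0.100), Ebp (-0.017), Dhcr7 (-0.014) and Abcg1 (-0.10). Scaling to the same median turned Abca1 (0.0071). Leaving out each sample in turn took the sign across 0 for Srebf1 (-0.062 to 0.11), Acly (-0.013 to 0.092), Acss2 (-0.082 to 0.015), Elovl6 (-0.095 to 0.079), Gpam (-0.096 to 0.038), Agpat2 (-0.012 to 0.052), Dgat2 (-0.17 to 0.052), Lpin3 (-0.048 to 0.29), Elovl2 (-0.062 to 0.072), Elovl4 (-0.050 to 0.11), Pmvk (-0.13 to 0.014), Idi1 (-0.28 to 0.23), Fdft1 (-0.036 to 0.23), Lss (-0.12 to 0.13), Tm7sf2 (-0.058 to 0.16), Msmo1 (-0.27 to 0.062), Hsd17b7 (-0.23 to 0.056), Abca1 (-0.069 to 0.074) and Abcg1 (-0.069 to 0.11). Thrsp was at -0.48 without HF23. When each sample was left out, the median of the SREBP-1 type genes ran from -0.17 (without HF24) to -0.074 and that of the SREBP-2 type genes from -0.10 to 0.08, highest without NC4. Chosen after the data were seen, the other scalings left 9 to 11 of the 18 SREBP-2 type genes with NC1 and NC4 above NC2 and NC5, and 15 with the larger SD in NC (13 to 15 when an NC sample was left out). The causes were not tested. No paired analysis was possible because the replicate numbers of NC and HF are not shared. Probe sets near the lowest intensity kept limit Mvd, Hsd17b7 and the second Scd1 probe set.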
